A study of Mus musculus with 40 samples.

Results

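Long-term haematopoietic stem cells (LT-HSC) of mouse bone marrow that had lost Dnmt3a were compared with wild-type LT-HSC. The members are the 4 LT-HSC libraries labelled as DNMT3A knockout (KO) and the 4 labelled as wild type (WT), 8 of the 40 libraries of the series, chosen by label. The series compares sorted stem and progenitor populations and c-kit+ cells of mice that lack Dnmt3a, and its title names STING as a mediator of the effects of mutated DNMT3A. The KO animals are Dnmt3a f/f with Mx1-Cre, per the series' design text, so that the Cre recombinase is driven by an interferon-inducible promoter. How Cre was induced, whether WT animals carried Cre or were treated, and the strain and age of the animals were not found in the labels or the design text. The libraries were made from polyA RNA by a modified SMART-Seq2 protocol, in which cDNA of few cells is amplified before the library is built. No label names an animal, so every p-value measures only the spread between these libraries, which may be technical.

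DNMT3A is a de novo DNA methyltransferase, which adds methyl groups to cytosines that were not yet methylated, mostly where a guanine follows. In blood stem cells it is known for restraining self-renewal, and its mutation is among the commonest events in clonal haematopoiesis and acute myeloid leukaemia. LT-HSC are the mostly quiescent cells that can rebuild blood for life. DNA methylation also silences transposable elements (TE), the genomic remains of mobile DNA such as endogenous retroviruses and LINE-1.

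No gene and no TE subfamily passed the test between KO and WT LT-HSC. With edgeR's quasi-likelihood test, 0 of 12800 genes (0%) and 0 of 905 TE subfamilies (0%) were called at an adjusted p under 0.05. At an unadjusted p under 0.05 there were 151 genes, 78 higher in KO (0.609%) and 73 lower (0.57%). With no difference in any gene, evenly spread p-values would put a share of 0.05 there, more than was seen. The lowest adjusted p over all genes was 0.999955. Every gene given below with an SE for KO against WT in the 8 libraries therefore had an edgeR adjusted p of at least that value. For TE subfamilies the lowest was 0.998239. DESeq2 called 44 genes, 19 higher and 25 lower, of which 26 had 0 reads in all 4 libraries of 1 genotype. Only 16 of the 44 were among the genes that edgeR tested, since edgeR's filter on low counts had removed the others. Limma-voom with quality weights called 0 genes, with 579 at an unadjusted p under 0.05. The 95% interval of the log2 fold change reached 1.31 to either side of its estimate for the median gene among those averaging 5 CPM or more (gene reads divided by the library's total and scaled by TMM, the unit of all levels below). These intervals are not adjusted for the number of genes, so a larger change can also miss the test, and a gene that did not pass is not shown to be equal between the groups. The fold changes below are KO over WT on the log2 scale, are values that did not pass the test, and have their standard error (SE) behind a ± sign or by name. Since these are bulk libraries, fewer cells of a type and less RNA per cell cannot be told apart.

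Dnmt3a itself (12: 3801559 to 3914443 on GRCm38, the build of all positions) was read first as a check of the labels. It was at 42.6, 77.3, 115 and 48.9 CPM in KO 1 to 4 and 243, 76.7, 108 and 99.5 CPM in WT 1 to 4. KO 1 and KO 4 lay below every WT library, KO 2 lay level with WT 2, and the library labelled KO 3 lay above 3 of the 4 WT libraries. WT 1 stood far above all others. The group levels were 70.99 ± 33.1 CPM in KO and 132 ± 75.3 CPM in WT (SD, n = 4 each), which overlapped (log2 fold change -0.89, SE 0.45, 95% interval -1.88 to 0.10). Without KO 2 and WT 1 it was -0.46 ± 0.40 (SE). Which exons the allele removes was not found in the labels either, so reads from a transcript that lacks them would still be counted. The Dnmt3a counts thus did not set KO 2 or KO 3 apart from WT, and they cannot tell whether the allele was deleted there. Every direction below includes KO 3 unless it is said to be left out.

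A pair of libraries, KO 2 and WT 1, stood apart from the other 6. Gene reads came to 16924296 and 20083926 in these libraries and to 28877510 to 45839319 in the others. Of the 10885 to 11002 genes that averaged 5 CPM or more in the other 7 libraries, 4.28% and 4.49% had no read in KO 2 and WT 1, against 0.973% to 2.06% in the others. Genes of cytosolic ribosomal proteins took 11.2% and 12.1% of their gene reads, against 7.26% to 8.82%. The first principal component of log2 CPM, with 33.7% of the variance, placed both at one end. Their log2 CPM correlated with each other at r = 0.718 over genes within these libraries and with the other 6 at 0.615 to 0.668, while those 6 correlated at 0.745 to 0.803. KO 1, KO 2, WT 1 and WT 2 carried transcripts of the Y chromosome and the other 4 carried Xist, so each genotype had 2 of each kind. Counts or medians of the lists are therefore given also for the 6 libraries without KO 2 and WT 1, where edgeR again called 0 genes (412 at an unadjusted p under 0.05) and DESeq2 called 94, 19 of them shared with its 44.

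**Figure D1:**
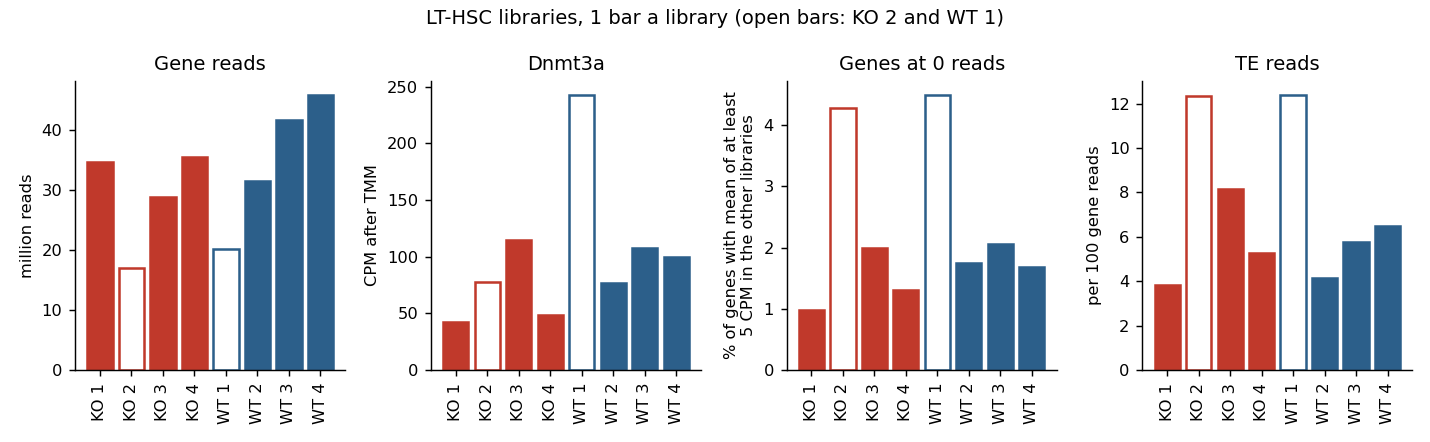
Gene reads, Dnmt3a in CPM, the percentage of otherwise expressed genes with 0 reads, and TE reads per 100 gene reads, with 1 bar for each LT-HSC library (red KO, blue WT, open bars KO 2 and WT 1). KO 2 and WT 1 have the fewest gene reads, the most genes at 0 and the most TE reads, and KO 3 lies above 3 WT libraries in Dnmt3a.

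The sorted identity was checked on marker genes. Of 32 stem cell transcription factors 31 had reads in all 8 libraries, and of 30 surface and niche receptors 27. Procr, the protein C receptor used to sort LT-HSC, was at 118, 14.7, 119 and 74.5 CPM in KO 1 to 4 and 66.4, 184, 151 and 100.4 CPM in WT 1 to 4. Slamf1, or CD150, was at 74.5, 36.1, 84.4 and 59.7 CPM in KO 1 to 4 and 35.8, 81.2, 79.9 and 70.7 CPM in WT 1 to 4. Both were present in every library and were lowest in KO 2 and WT 1. Cd48, which LT-HSC lack and progenitors carry, was at 1.42, 4.597, 8.78 and 0.325 CPM in KO 1 to 4 and 50.7, 6.61, 2.998 and 0.0837 CPM in WT 1 to 4. It was thus highest in WT 1. The defining genes of mature B cells Pax5 and Cd79a and the T cell genes Cd3d, Cd3e and Cd3g were below 1 CPM in all 8 libraries. The neutrophil genes Mmp8 and Fcnb had 0 reads in all 8 libraries. Other members of these lists were read. Of 14 T and NK cell genes 4 had 0 reads in all 8 libraries, and of 20 granulocytic genes 3. The 20 granulocytic genes summed to 521 to 712 CPM in KO and 441 to 3895 CPM in WT, highest in WT 1. Cd79b, another B cell gene, was at 4.09 to 55.7 CPM in KO and 5.53 to 38.5 CPM in WT. Nkg7 was at 163, 130, 51.7 and 169 CPM in KO 1 to 4 and 170, 73.2, 74.2 and 64.7 CPM in WT 1 to 4. Lck was at 21.3, 9.45, 15.9 and 15.03 CPM in KO 1 to 4 and 0.316, 22.5, 23.7 and 22.3 CPM in WT 1 to 4.

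Without an adjusted p under 0.05 in any gene, those with the lowest p in each direction are given as values. Klhl25 (7: 75848338 to 75874133), an adaptor of a cullin-3 ubiquitin ligase, was at 31.5, 41.4, 16.3 and 32.01 CPM in KO 1 to 4 and 0.421, 1.01, 4.76 and 1.17 CPM in WT 1 to 4. Every KO library lay above every WT library, the nearest being KO 3 and WT 3 (log2 fold change 4.03, SE 0.99). Itgam (7: 128062640 to 128118491), the CD11b chain of the myeloid integrin Mac-1, was at 2.83, 6.32, 19.9 and 11.1 CPM in KO 1 to 4 and 0.316, 0.06299, 0 and 0.0419 CPM in WT 1 to 4. The KO libraries all had more than any WT library, and the WT values rest on a handful of reads (log2 fold change 6.59, SE 1.84). Itgam is one of the monocyte and macrophage genes described further down. Across all genes 111 (0.867%) had every KO library above every WT library and 110 (0.859%) the reverse. In the 6 libraries these were 614 of the 12698 of them that passed the filter there (4.84%) and 616 (4.85%).

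The other 4 genes on the higher side differed less. Scoc (8: 83434492 to 83458436), a Golgi coiled-coil protein involved in autophagy, was at 96.9, 247, 102 and 101 CPM in KO 1 to 4 and 61.6, 50.8, 60.5 and 39.4 CPM in WT 1 to 4. Its groups did not overlap, and KO 2 stood far above the rest (log2 fold change 1.36, SE 0.39). Kctd5 (17: 24047720 to 24073485), another cullin-3 adaptor, was at 24.5, 87.5, 26.9 and 60.6 CPM in KO 1 to 4 and 10.01, 5.98, 15.6 and 20.97 CPM in WT 1 to 4. Again no KO library fell within the WT range, although KO 1 and WT 4 were close (log2 fold change 1.92, SE 0.64). Ctdspl2 (2: 121955398 to 122015326), a phosphatase, was at 52.4, 147, 109.7 and 55.4 CPM in KO 1 to 4 and 29.2, 49.5, 21.5 and 45.04 CPM in WT 1 to 4. KO 1 was just above WT 2 (log2 fold change 1.33, SE 0.47). Clca3a1 (3: 144729677 to 144760977), of the calcium-activated chloride channel regulator family, was at 183, 185, 135 and 78.7 CPM in KO 1 to 4 and 84.6, 65.7, 68.1 and 43.5 CPM in WT 1 to 4. KO 4 lay below WT 1, so that its groups overlapped (log2 fold change 1.15, SE 0.37). In the 6 libraries the fold changes of these 4 genes, in the order named, were 0.99, 1.39, 0.91 and 1.16.

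Among genes lower in KO, Cd74 (18: 60803849 to 60812652), the invariant chain of MHC class II, was at 117, 93.7, 33.5 and 87.96 CPM in KO 1 to 4 and 122, 310.4, 260.1 and 400.2 CPM in WT 1 to 4. The highest KO library, KO 1, lay just below WT 1, and the other WT libraries were higher (log2 fold change -1.72, SE 0.45; -2.03 ± 0.41 in the 6 libraries). Ahnak (19: 8989284 to 9076935), a very large scaffold protein under the plasma membrane, was at 2.36, 3.19, 1.51 and 1.52 CPM in KO 1 to 4 and 48.5, 19.6, 10.4 and 16.5 CPM in WT 1 to 4. All 4 KO libraries were well under the lowest WT library (log2 fold change -3.47, SE 0.94). Satb1 (17: 51736187 to 51833290), a chromatin organizer that primes stem cells for lymphoid fate, was at 0.354, 0.766, 0.06703 and 0.298 CPM in KO 1 to 4 and 18.6, 6.55, 4.62 and 17.9 CPM in WT 1 to 4. No KO library reached 1 CPM, and every WT library was above 4 (log2 fold change -5.002, SE 1.43; -5.31 ± 1.54 in the 6 libraries). Gimap5 (6: 48746197 to 48754200), a GTPase needed for survival of lymphocytes and stem cells, was at 58.9, 65.1, 68.8 and 74.2 CPM in KO 1 to 4 and 98.04, 173, 185 and 113 CPM in WT 1 to 4. Its KO values were tight and below all WT values (log2 fold change -1.09, SE 0.32).

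The remaining pair overlapped between the groups. Mon1b (8: 113635586 to 113645192), a factor of endosome maturation, was at 7.53, 1.02, 5.03 and 9.005 CPM in KO 1 to 4 and 32.3, 7.46, 97.5 and 47.3 CPM in WT 1 to 4. WT 2 lay inside the KO range (log2 fold change -3.03, SE 0.90). Cyb5r4 (9: 87022008 to 87077774), a cytochrome b5 reductase, was at 72.7, 53.8, 46.3 and 58.2 CPM in KO 1 to 4 and 165, 71.7, 134 and 128 CPM in WT 1 to 4. WT 2 was again the exception, just under KO 1 (log2 fold change -1.11, SE 0.35). DESeq2 called Klhl25, Itgam, Ahnak and Satb1 among its 44 genes, with log2 fold changes of 4.03, 6.69, -3.49 and -5.05 and adjusted p-values of 9.17e-05, 1.33e-05, 3.78e-05 and 9.16e-06.

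**Figure D2:**
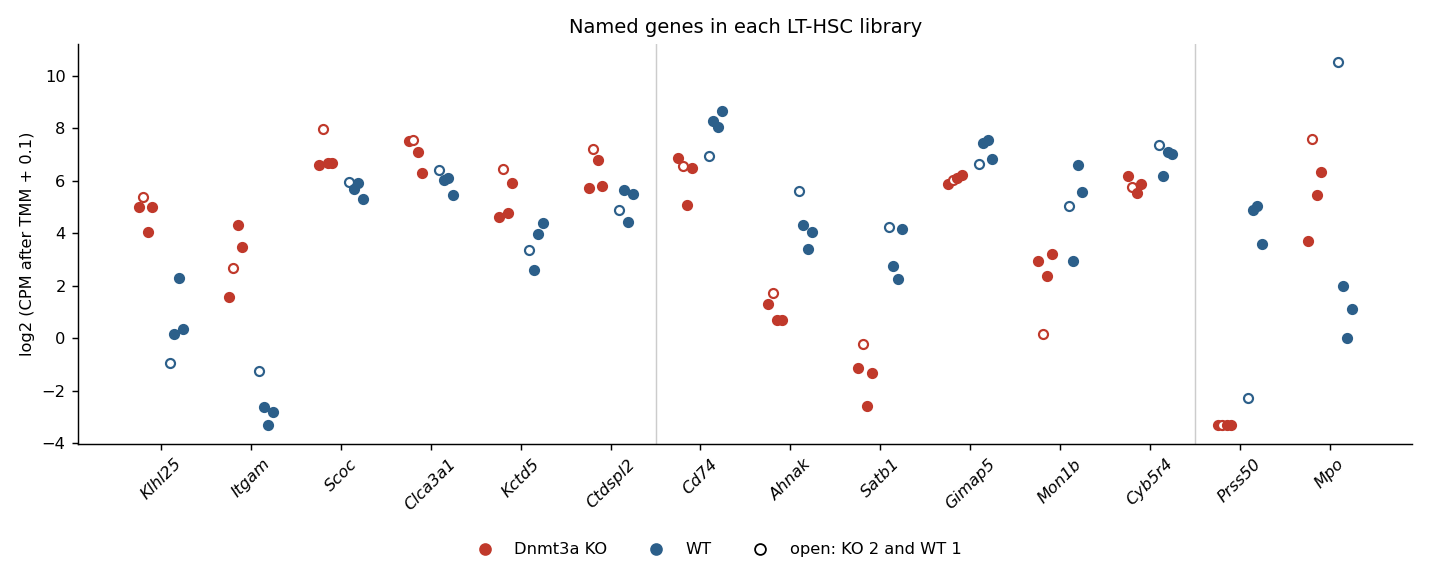
Level of the 6 genes with the lowest p on the higher side, the 6 on the lower side, and Prss50 and Mpo, as log2 of CPM plus 0.1, with 1 point for each LT-HSC library (red KO, blue WT, open points KO 2 and WT 1). The KO and WT points of Klhl25, Itgam, Ahnak and Satb1 do not overlap, and WT 1 lies far above the other WT libraries in Mpo.

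Some genes were read in 1 genotype and hardly or not in the other, and these were chosen after their values were seen. Prss50 (9: 110857964 to 110864629), a testis serine protease of the cancer-testis group, had 0 reads in all 4 KO libraries and was at 0.105, 29.4, 32.6 and 11.8 CPM in WT 1 to 4. It was at least 796-fold lower in KO when the group is set to the limit of 3 reads over its 4 libraries, which covers counting error only. WT 1 had almost none, so that its level within WT also varied widely. Tm6sf2 (8: 70072924 to 70080066), a membrane protein of lipid export, was at 11.5, 0, 10.9 and 5.15 CPM in KO 1 to 4 and had 0 reads in WT, at least 362-fold higher on the same limit taken over WT. Neither passed edgeR's filter on low counts in the 8 libraries. DESeq2 called both (adjusted p = 1.91e-07 and 0.00379).

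The promoters of 5 of these genes are printed because DNMT3A acts on cytosines followed by guanine (CG), and they hold very different numbers of them. The windows are from RefSeq on GRCm38.p6, 250 bases before to 50 after the annotated start, read 5′ to 3′ on the gene's strand, with each CG in capitals.
Klhl25, chr7:75848088-75848387, plus strand: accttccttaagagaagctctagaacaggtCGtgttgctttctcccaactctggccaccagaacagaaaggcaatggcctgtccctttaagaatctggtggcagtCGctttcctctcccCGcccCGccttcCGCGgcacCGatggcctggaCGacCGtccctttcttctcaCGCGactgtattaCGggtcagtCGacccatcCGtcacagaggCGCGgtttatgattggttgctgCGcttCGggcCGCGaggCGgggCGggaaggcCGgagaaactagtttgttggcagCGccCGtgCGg
Itgam, chr7:128062390-128062689, plus strand: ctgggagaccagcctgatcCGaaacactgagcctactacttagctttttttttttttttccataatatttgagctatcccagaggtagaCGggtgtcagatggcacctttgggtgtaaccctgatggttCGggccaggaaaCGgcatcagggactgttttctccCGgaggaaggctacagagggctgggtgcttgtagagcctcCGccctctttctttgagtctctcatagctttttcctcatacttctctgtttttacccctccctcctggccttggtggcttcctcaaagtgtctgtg
Ahnak, chr19:8989034-8989333, plus strand: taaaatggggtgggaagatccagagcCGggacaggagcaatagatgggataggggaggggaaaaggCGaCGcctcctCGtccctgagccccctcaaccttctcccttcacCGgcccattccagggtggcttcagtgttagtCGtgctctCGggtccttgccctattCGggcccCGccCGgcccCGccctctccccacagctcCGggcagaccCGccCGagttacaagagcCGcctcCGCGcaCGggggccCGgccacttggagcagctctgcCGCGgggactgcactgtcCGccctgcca
Gimap5, chr6:48745947-48746246, plus strand: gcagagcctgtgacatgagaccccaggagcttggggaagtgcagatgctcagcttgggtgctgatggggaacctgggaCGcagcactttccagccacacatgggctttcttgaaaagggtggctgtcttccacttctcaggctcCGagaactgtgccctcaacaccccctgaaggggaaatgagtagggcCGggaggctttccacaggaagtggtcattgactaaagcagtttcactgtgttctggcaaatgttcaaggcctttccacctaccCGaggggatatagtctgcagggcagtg
Prss50, chr9:110857714-110858013, plus strand: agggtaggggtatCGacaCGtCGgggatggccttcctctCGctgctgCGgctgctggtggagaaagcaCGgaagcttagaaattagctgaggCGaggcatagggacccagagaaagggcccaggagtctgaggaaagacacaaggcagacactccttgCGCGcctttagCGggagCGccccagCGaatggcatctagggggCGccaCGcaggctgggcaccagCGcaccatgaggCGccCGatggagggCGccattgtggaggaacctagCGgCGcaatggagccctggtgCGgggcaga
The search was for CG alone, which reads the same on both strands. Klhl25 held 26 and Ahnak 22, a count that 16.9% and 23.1% of the 32851 promoter windows in the table reach. Prss50 held 21 (reached by 24.8%), Itgam 6 (56.4%) and Gimap5 4 (68.6%). For Prss50 2 windows are annotated, of which only the first is printed and counted here, while the other genes printed have 1 each. At least 1 CG was found in 94.6% of all windows, whose median was 7. Of these 5 windows, those of genes higher in KO held 26 and 6, and those of genes lower in KO held 22, 21 and 4. The 5 were picked from the named genes, so this mix describes them alone. Methylation was not measured, and the counts describe these letters only.

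MHC class II genes other than Cd74 were read after its values were seen. H2-Eb1 (17: 34305867 to 34316674) was at 59.7, 84.2, 32.1 and 59.6 CPM in KO 1 to 4 and 85.5, 78.1, 155 and 179.9 CPM in WT 1 to 4. WT 1 and WT 2 lay close to the highest KO library, KO 2 (log2 fold change -1.08, SE 0.41; -1.45 ± 0.38 in the 6 libraries). H2-Ab1 differed by -0.49 ± 0.35 (-0.89 ± 0.28 in the 6 libraries) and H2-Aa by -0.57 ± 0.35 (-0.63 ± 0.34). The genes of the peptide-loading chaperone did not all point lower. H2-DMa differed by 0.09 ± 0.49 (0.24 ± 0.25 in the 6 libraries), H2-DMb1 by -0.19 ± 0.45 (-0.18 ± 0.32) and H2-DMb2, with few reads, by -1.12 ± 2.21 (-1.12 ± 1.99). Ciita, the master activator of these genes, was at 1.95, 0, 7.31 and 0.976 CPM in KO 1 to 4 and 0, 2.27, 4.81 and 3.14 CPM in WT 1 to 4. It overlapped between the groups and was at 0 in KO 2 and WT 1. Of the 13 B cell genes counted, 4 were tested, with 1 positive (median -0.89) and 1 of 3 in the 6 libraries (-0.51), and all 13 summed to 175, 101, 72.4 and 139 CPM in KO 1 to 4 and 135, 361, 306 and 445 CPM in WT 1 to 4. Cd74 made up most of it in every library but KO 3. Cd79b, the signalling chain of the B cell receptor, was at 55.7, 4.09, 34.3 and 50.4 CPM in KO 1 to 4 and 5.53, 38.5, 37.9 and 37.3 CPM in WT 1 to 4, and Ms4a1 (CD20) was at 0 in every library but WT 3 and WT 4, at 1.09 and 6.03 CPM. The part of B cells in the Cd74 values was not tested.

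Lymphoid priming genes, which mark stem and progenitor cells leaning to lymphoid fate, had positive fold changes in 7 of 15 members tested (median 0.00, against 0.00 over all genes), and in 8 of 15 in the 6 libraries (0.21). Satb1 was the member with the lowest p. Mef2c and Cd27, the members with the highest CPM, differed by -0.07 ± 0.27 and 0.20 ± 0.32. Ikzf1, the Ikaros factor, was at 138, 167, 103 and 97.6 CPM in KO 1 to 4 and 161, 158, 147 and 164 CPM in WT 1 to 4. KO 2 was the exception to an otherwise lower KO group (log2 -0.32, SE 0.28). Other genes of the Gimap cluster on chromosome 6, chosen after Gimap5 was seen, ranged from -1.63 for Gimap3 to 0.07 for Gimap8 (in the 6 libraries -2.700 ± 1.01 and -0.50 ± 0.61). Gimap6 was at 179.8, 29.1, 305 and 174 CPM in KO 1 to 4 and 122, 403, 407 and 378 CPM in WT 1 to 4. WT 1 lay below 3 KO libraries, while the other WT libraries were above all of them.

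Cell cycle genes leaned to the higher side in KO without any member passing the test. Of the G1/S and replication licensing genes, which load and fire replication origins, 22 of 27 had a positive fold change, with a median of 0.41, and in the 6 libraries 25 of 27 (0.46). Of the G2/M genes, which drive mitosis, 20 of 25 were positive (median 0.35), and in the 6 libraries 22 of 25 (0.41). Over all genes the median was 0.00 in both sets, with 6441 of 12800 positive. No G1/S or G2/M member kept the groups apart in the 8 libraries (0 of 27 and 0 of 25, against 0.867% of all genes), and Rrm2 and Kif20a did in the 6 (1 of each list, against 4.84%).

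The summed level of the 27 G1/S genes was 3595, 2807, 3182 and 4883 CPM in KO 1 to 4 and 2932, 3631, 2071 and 2521 CPM in WT 1 to 4. KO 4 was highest and WT 3 lowest, while WT 2 lay above KO 1, KO 2 and KO 3, so the groups overlapped. The 25 G2/M genes summed to 4247, 4547, 2015 and 2791 CPM in KO 1 to 4 and 3831, 3271, 1292 and 2404 CPM in WT 1 to 4. KO 1 and KO 2 were high, but WT 1 and WT 2 lay above KO 3 and KO 4. Mcm5, a subunit of the replicative helicase, was at 357, 282, 273 and 380.3 CPM in KO 1 to 4 and 217, 276, 145 and 219.99 CPM in WT 1 to 4. Only WT 2 reached into the KO range (log2 fold change 0.59, SE 0.28, 95% interval -0.02 to 1.202). Cdc45, which activates that helicase, differed by 0.91 ± 0.46 and Tyms, thymidylate synthase, by 0.70 ± 0.36. Rrm1, of ribonucleotide reductase, and Mcm4 differed by 0.44 ± 0.27 and 0.44 ± 0.28.

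Among G2/M genes Cenpf, a kinetochore protein, was at 139, 456, 63.9 and 114 CPM in KO 1 to 4 and 124, 97.9, 28.8 and 61.9 CPM in WT 1 to 4. KO 2 was far the highest, and KO 3 and KO 4 lay within the WT range (log2 fold change 1.31, SE 0.61; 0.75 ± 0.45 in the 6 libraries). Kif23, a motor of cytokinesis, was at 74.1, 95.97, 74.2 and 47.2 CPM in KO 1 to 4 and 48.6, 34.9, 27.7 and 53.7 CPM in WT 1 to 4. WT 1 and WT 4 lay above KO 4 (log2 fold change 0.82, SE 0.40). The mitotic cyclins Ccnb2, Ccna2 and Ccnb1 differed by 0.67, 0.61 and 0.44 (SE 0.44, 0.43 and 0.35), and Hmmr went the other way at -0.80 ± 0.62. Genes of quiescence and G1 control split evenly, 13 of 26 positive and 12 of 26 in the 6 libraries. Cdk6, a kinase of G1 entry, was at 829, 1098, 548 and 463 CPM in KO 1 to 4 and 1493, 512, 346 and 259 CPM in WT 1 to 4. WT 1 was highest, so that the fold change was 0.17 with it and 0.72 ± 0.29 in the 6 libraries. Of p53 targets 15 of 24 were positive (median 0.08) and 15 of 23 in the 6 libraries (0.17).

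**Figure D3:**
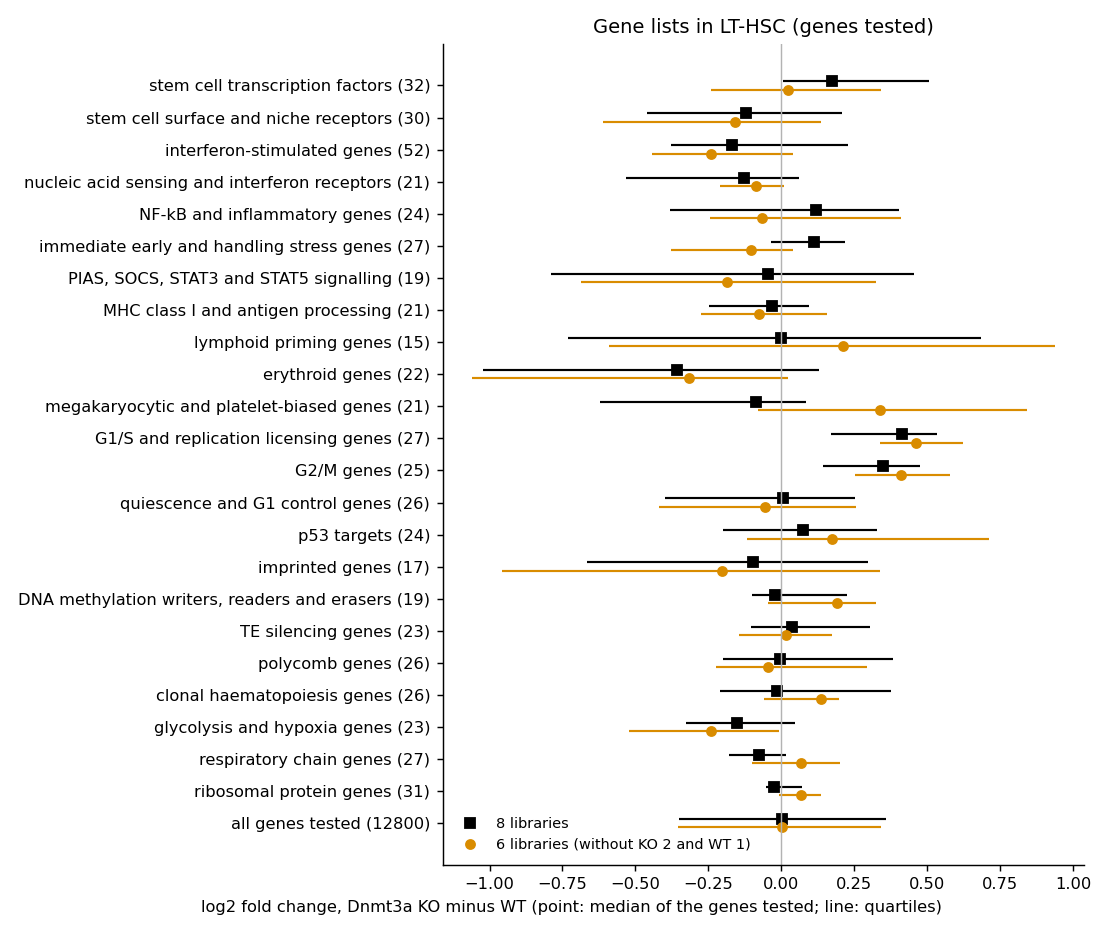
Median log2 fold change (KO minus WT) of the genes tested of each list with at least 15, with lines from the lower to the upper quartile, for the 8 libraries (black squares) and for the 6 without KO 2 and WT 1 (orange points). Both cell cycle lists lie right of 0 in both sets, and all genes tested are centred on 0.

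Stem cell transcription factors had positive fold changes in 25 of 32 members (median 0.17), but in the 6 libraries in 16 of 32 (median 0.02), so that this direction rested on KO 2 and WT 1. Sox6, a factor of the SOX family, was at 74.2, 67.6, 77.05 and 57.1 CPM in KO 1 to 4 and 31.8, 24.8, 25.7 and 61.7 CPM in WT 1 to 4. Only WT 4 came up to the KO range (log2 fold change 0.94, SE 0.43; 0.89 ± 0.42 in the 6 libraries). The core factors Hlf, Meis1, Mecom and Gata2 differed by 0.01, 0.07, 0.17 and 0.18, all within 1 SE of 0, and in the 6 libraries by -0.36, -0.07, -0.23 and -0.01. Mycn was at 182, 222, 102 and 178 CPM in KO 1 to 4 and 62.1, 281, 491 and 232 CPM in WT 1 to 4. WT 1 lay below all KO libraries, and the other WT libraries lay above them (log2 -0.64, SE 0.50; -1.13 ± 0.33 in the 6 libraries). Ndn, an imprinted gene expressed in quiescent stem cells, was at 71.7, 40.1, 90.1 and 99.5 CPM in KO 1 to 4 and 54.2, 125, 155 and 133 CPM in WT 1 to 4. WT 1 was again low, and the other WT libraries lay above every KO library (log2 -0.63, SE 0.41; -0.66 ± 0.24 in the 6 libraries).

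Surface and niche receptors leaned to the lower side, with 10 of 30 positive (median -0.12) and 11 of 30 in the 6 libraries (-0.16). Ctnnal1, an alpha-catenin relative enriched in stem cells, was at 37.5, 31.8, 35.02 and 64.2 CPM in KO 1 to 4 and 27.4, 21.3, 22.5 and 21.6 CPM in WT 1 to 4. Every KO library lay above every WT library, KO 2 by a small margin (log2 fold change 0.86, SE 0.48). It was the 1 member of 30 whose groups did not overlap (background 0.867%). Cd9, a tetraspanin of stem cells and megakaryocytes, was at 346, 63.9, 270.5 and 329.9 CPM in KO 1 to 4 and 14.5, 188, 184 and 190.04 CPM in WT 1 to 4. Within the 6 libraries all KO values lay above WT (0.75 ± 0.19), while KO 2 and WT 1 were each the lowest of their group. Kit, the stem cell factor receptor, differed by 0.38 ± 0.38 and Procr by -0.62 ± 0.56.

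Genes of granulocytes were far higher in WT 1 than in any other library. The 20 granulocytic genes summed to 595, 712, 521 and 536 CPM in KO 1 to 4 and 3895, 653, 441 and 492 CPM in WT 1 to 4. Mpo, myeloperoxidase of promyelocytes, was at 12.9, 189, 43.4 and 80.5 CPM in KO 1 to 4 and 1458, 3.84, 0.904 and 2.05 CPM in WT 1 to 4. In the 8 libraries its fold change was -2.17 ± 1.77, and in the 6 it was 4.33 ± 0.87, with every KO library above every WT library. In the 6 libraries DESeq2 gave a log2 fold change of Mpo of 4.34 (adjusted p = 4.82e-05). Elane, neutrophil elastase, was at 1.09, 50.2, 1.21 and 3.28 CPM in KO 1 to 4 and 634, 0.346, 0 and 0.4605 CPM in WT 1 to 4, and Ctsg, cathepsin G, at 0.768, 0.894, 6.84 and 1.03 CPM in KO 1 to 4 and 419.96, 0.126, 0.0476 and 0.209 CPM in WT 1 to 4. In both, WT 1 was highest by far and the other WT libraries were the lowest of all, so their fold changes turned from -3.52 and -5.45 to 2.78 and 4.46 without KO 2 and WT 1. Of 9 granulocytic genes tested 2 were positive (median -1.04), and of 8 in the 6 libraries 5 (0.84), 3 of them (Mpo, Elane and Ctsg) with no overlap (background 4.84%). Prtn3, proteinase 3, and Csf3r, the G-CSF receptor, overlapped in either set (-0.16 and 0.32 in the 6 libraries).

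Of the monocyte and macrophage genes 6 of 10 tested were positive (median 0.07) and 5 of 9 in the 6 libraries (0.08). Lyz2, lysozyme, was at 459, 81.98, 371 and 369.7 CPM in KO 1 to 4 and 96.5, 227, 418 and 481 CPM in WT 1 to 4, and its groups overlapped (log2 0.07, SE 0.55). Spi1, the PU.1 factor that drives Itgam in myeloid cells, differed by -0.27 ± 0.59. Csf1r, the receptor that defines monocytes, was at 0, 12.1, 3.28 and 0.108 CPM in KO 1 to 4 and 30.9, 0, 0 and 0 CPM in WT 1 to 4, highest in WT 1 where Itgam was near 0. The macrophage genes C1qa, C1qb and Mrc1 were above 3 CPM in KO 3 alone, at 4.22, 8.31 and 9.25 CPM, the library with the most Itgam. The monocyte and macrophage list summed to 502 to 788 CPM in KO and 597 to 801 CPM in WT. The part of macrophage transcripts in the Itgam value of KO 3 was not tested.

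Erythroid genes leaned to the lower side, with 7 of 22 positive (median -0.36) and 6 of 22 in the 6 libraries (-0.31). In the 8 libraries the groups separated in 0 of 22 members (background 0.867% higher and 0.859% lower). In the 6 libraries 1 of 22 was higher and 2 were lower with no overlap (background 4.84% and 4.85%). Gata1, the master factor of red cells and megakaryocytes, went the other way at 66.2, 132, 75.2 and 136 CPM in KO 1 to 4 and 5.64, 71.4, 44.1 and 36.8 CPM in WT 1 to 4. KO 1 lay just under WT 2, and WT 1 had very little (log2 fold change 1.38, SE 0.61; 0.87 ± 0.39 in the 6 libraries). Tfrc, the transferrin receptor, was at 21.9, 73.04, 73.8 and 18.9 CPM in KO 1 to 4 and 479, 90.7, 37.9 and 52.2 CPM in WT 1 to 4. WT 1 was far the highest (log2 -1.81, SE 0.79; -0.65 ± 0.57 in the 6 libraries). Car1, carbonic anhydrase of early red cells, was at 4.43, 43.7, 508 and 184 CPM in KO 1 to 4 and 1.05, 922, 290.2 and 299 CPM in WT 1 to 4. KO 1 and WT 1 had the least, and the spread within each group exceeded the difference (log2 -1.03, SE 1.33). The erythroid list summed to 2528 to 4303 CPM in KO and 1648 to 4357 CPM in WT.

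The megakaryocytic and platelet-biased genes, which mark the platelet-leaning part of LT-HSC, had 8 of 21 positive (median -0.09) in the 8 libraries and 15 of 21 (0.34) in the 6. Pf4, platelet factor 4, was at 100.1, 85.4, 86.03 and 248 CPM in KO 1 to 4 and 2318, 149.8, 118 and 128 CPM in WT 1 to 4. WT 1 was far the highest, and without KO 2 and WT 1 the difference of -2.39 ± 0.93 became 0.13 ± 0.38. Vwf, von Willebrand factor, was at 89.5, 15.4, 66.2 and 139 CPM in KO 1 to 4 and 60.2, 66.99, 101 and 64.2 CPM in WT 1 to 4. Its groups overlapped (log2 0.08, SE 0.54). Itga2b, CD41 of platelets and platelet-biased stem cells, differed by 0.39 ± 0.43 (0.84 ± 0.40 in the 6 libraries). The part of progenitor cells in the values of WT 1 was not tested, and Cd48 was highest there.

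**Figure D4:**
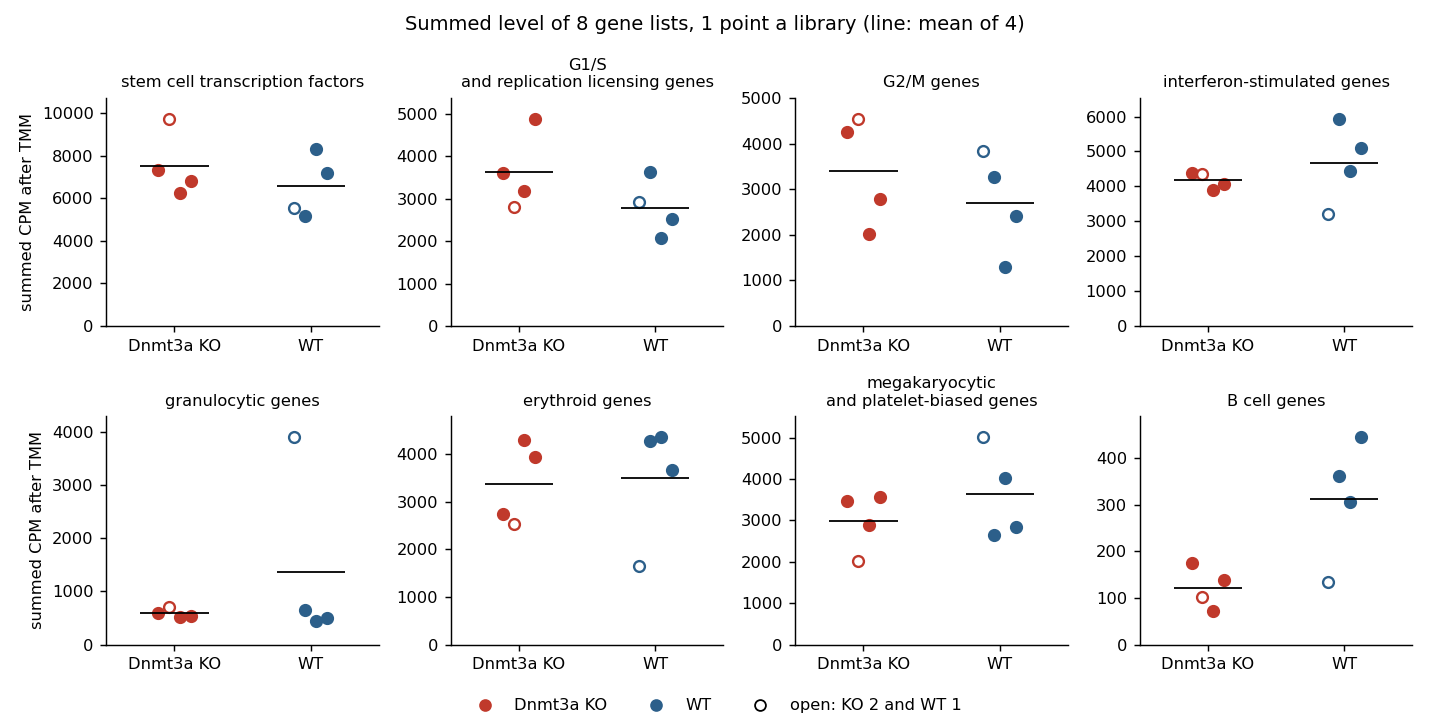
Summed CPM of 8 gene lists, with 1 point for each LT-HSC library (red KO, blue WT, open points KO 2 and WT 1) and a line at each group's mean. WT 1 stands alone in the granulocytic list, and the KO and WT points overlap in all 8 lists.

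Interferon-stimulated genes did not lean to the higher side. Of the 52 tested, 22 were positive with a median of -0.17, and in the 6 libraries 16 of 52 with a median of -0.24. None had KO above WT without overlap (background 0.867%) and only Slfn5 had the reverse (background 0.859%), at 5.79, 6.38, 3.69 and 3.91 CPM in KO 1 to 4 and 15.4, 6.87, 7.95 and 11.4 CPM in WT 1 to 4 (log2 -1.07, SE 1.01). The 56 genes in the table summed to 4375, 4352, 3889 and 4078 CPM in KO 1 to 4 and 3209, 5939, 4449 and 5094 CPM in WT 1 to 4. WT 2 was highest and WT 1 lowest, with all KO libraries between them. Ifitm1 and Ifitm3, membrane proteins that block virus entry and are naturally high in stem cells, differed by -0.46 ± 0.40 and -0.17 ± 0.29.

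The 4 interferon members with the lowest p pointed higher in the 8 libraries and overlapped. Ifit1, which binds viral RNA, was at 4.84, 64.6, 6.54 and 12.3 CPM in KO 1 to 4 and 0.105, 10.02, 0.1904 and 0 CPM in WT 1 to 4. KO 2 stood out and WT 2 lay within the KO range (log2 fold change 3.09, SE 1.82; 1.21 ± 1.96 in the 6 libraries). Oas3, an oligoadenylate synthetase, was at 20.3, 24.6, 15.7 and 44.9 CPM in KO 1 to 4 and 3.69, 5.67, 20.99 and 15.1 CPM in WT 1 to 4. WT 3 lay above KO 1 and KO 3 (log2 fold change 1.21, SE 0.78; 0.95 ± 0.70 in the 6 libraries). Oas genes have close copies, so how the authors' counting split their reads is uncertain. Samd9l, an antiviral factor, was at 38.9, 144, 26.7 and 33.6 CPM in KO 1 to 4 and 21.4, 27.8, 27.6 and 51.9 CPM in WT 1 to 4, with KO 2 far above the rest (log2 0.92, SE 0.60), and the estimate was -0.11 ± 0.43 in the 6 libraries. Eif2ak2, the kinase PKR that senses double-stranded RNA, was at 30.4, 30.97, 43.4 and 46.7 CPM in KO 1 to 4 and 32.2, 13.3, 6.901 and 32.7 CPM in WT 1 to 4. WT 2 and WT 3 were low, WT 1 and WT 4 level with KO (log2 fold change 0.83, SE 0.61; 1.19 ± 0.61 in the 6 libraries). Bst2, or tetherin, differed by -0.39 ± 0.33.

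The genes of DNA sensing around Sting were expressed and overlapped. Tmem173, the gene of Sting, was at 74.9, 13.8, 98.3 and 66.3 CPM in KO 1 to 4 and 26.97, 87.1, 107 and 81.8 CPM in WT 1 to 4. KO 2 and WT 1 were low, and the other 6 lay between 66.3 and 107 (log2 -0.26, SE 0.58, 95% interval -1.52 to 1.003). Mb21d1, the DNA sensor cGAS, and Tbk1, the kinase downstream, differed by -0.36 ± 0.56 and -0.08 ± 0.46. Irf3, the factor that Tbk1 activates, was at 149, 156, 104 and 87.9 CPM in KO 1 to 4 and 80.5, 94.2, 62.97 and 59.5 CPM in WT 1 to 4. WT 2 lay above KO 4 (log2 fold change 0.74, SE 0.33; 0.65 in the 6 libraries). Of this list 7 of 21 were positive (median -0.13) and 8 of 21 in the 6 libraries (-0.09).

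Of the genes of STAT signalling, Socs2 and Cish were lower in every KO than in every WT library once KO 2 and WT 1 were left out. Socs2, a growth-signal inhibitor named after its values were seen, was at 17.2, 145, 25.6 and 36.7 CPM in KO 1 to 4 and 109.6, 209.7, 60.5 and 108 CPM in WT 1 to 4. KO 2 lay above 3 WT libraries (log2 -1.12, SE 0.64; -2.25 ± 0.49 in the 6 libraries). Cish, which like Socs2 is induced by STAT5, was at 234, 216, 189 and 83.5 CPM in KO 1 to 4 and 100.2, 420.2, 419 and 255 CPM in WT 1 to 4. WT 1 was the exception among WT (log2 -0.73, SE 0.46; -1.12 ± 0.37 in the 6 libraries, with no overlap). Of the whole list of PIAS, SOCS and STAT genes 9 of 19 were positive in the 8 libraries (median -0.05) and 6 of 19 in the 6 (-0.19), where Cish, Socs2 and Csf2rb2 were lower with no overlap (3 of 19, background 4.85%). Pias3, an inhibitor of STAT3, was the 1 member whose groups did not overlap in the 8 libraries (background 0.867%). It was at 44.1, 26.6, 42.5 and 37.4 CPM in KO 1 to 4 and 15.96, 21.5, 18.7 and 17.5 CPM in WT 1 to 4. Every KO library lay above every WT library (log2 fold change 1.03, SE 0.51).

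Of the genes of DNA methylation other than Dnmt3a, 9 of 19 were positive (median -0.02) and 14 of 19 in the 6 libraries (0.19). Dnmt3b, the other de novo methyltransferase, was at 50.6, 222, 72.96 and 114 CPM in KO 1 to 4 and 161, 87.4, 55.1 and 65.1 CPM in WT 1 to 4. KO 2 and WT 1 were highest (log2 0.32, SE 0.50, 95% interval -0.77 to 1.403). Uhrf1, which guides maintenance methylation after replication and is also on the G1/S list, was at 175, 149, 154 and 303 CPM in KO 1 to 4 and 167, 177, 76.7 and 127 CPM in WT 1 to 4. KO 4 was highest and WT 3 lowest (log2 0.51, SE 0.36; 0.73 ± 0.36 in the 6 libraries). Tet1 and Tet2, which oxidize methylated cytosine, differed by -0.42 ± 0.48 and -0.10 ± 0.61. None of the 25 germline genes that methylation keeps silent in somatic cells had enough reads to be tested, and 21 had 0 reads in all 8 libraries. Ddx4, or Vasa, was seen above 1 CPM in WT 1 and WT 4 only, at 15.7 and 5.63 CPM. Of imprinted genes 8 of 17 were positive (median -0.10) and 8 of 17 in the 6 libraries (-0.20). The TE silencing and polycomb lists had medians of 0.04 and 0.00, and of 0.02 and -0.04 in the 6 libraries.

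Of the other lists, clonal haematopoiesis genes besides Dnmt3a had 12 of 26 positive (median -0.02) and 17 of 26 in the 6 libraries (0.14). Sf3b1, a splicing factor, was at 652, 682, 651 and 586 CPM in KO 1 to 4 and 487, 519, 568 and 615 CPM in WT 1 to 4 (log2 0.23, SE 0.22). Glycolysis and hypoxia genes had 8 of 23 positive (median -0.15), and in the 6 libraries 6 of 23 (-0.24). Pdk1, which diverts pyruvate from mitochondria, differed by -0.51 ± 0.38 (-0.79 ± 0.31 in the 6 libraries, with no overlap). The respiratory chain, ribosomal protein and MHC class I lists had medians of -0.08, -0.02 and -0.03, and of 0.07, 0.07 and -0.08 in the 6 libraries. For NF-kB and inflammatory genes the median was 0.12 in the 8 and -0.07 in the 6, and for immediate early genes 0.11 and -0.10. Fos, an immediate early transcription factor, was at 7248, 3218, 4433 and 2693 CPM in KO 1 to 4 and 1168, 5116, 5840.3 and 4787 CPM in WT 1 to 4, which overlapped (0.06 ± 0.46, and -0.14 ± 0.29 in the 6 libraries). Markers of other cells were few among the genes tested. Of T and NK cell genes 3 were tested (median 0.43, and -0.17 in the 6 libraries with 1 of 3 positive), and the list summed to 83.5 to 204 CPM in KO and 94.6 to 176 CPM in WT. Of the genes of basophils, mast cells and eosinophils 4 were tested (median 0.46, and 0.31 in the 6 libraries over the 2 tested there), with sums of 561 to 788 CPM in KO and 518 to 909 CPM in WT. Of stromal and endothelial genes 8 were tested (median 0.20, and -0.18 in the 6 libraries with 3 of 8 positive), with sums of 275 to 379 CPM in KO and 248 to 414 CPM in WT.

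Transposable elements were compared next, since DNA methylation is known to silence them. TE reads per 100 gene reads came to 3.81, 12.3, 8.16 and 5.25 in KO 1 to 4 and 12.4, 4.16, 5.78 and 6.5 in WT 1 to 4. KO 2 and WT 1 were highest and nearly equal, and the groups overlapped. The means were 7.39 ± 3.76 in KO and 7.21 ± 3.59 in WT (SD, n = 4), a difference of 0.181 (two-sided exact permutation p = 1, where the smallest possible is 0.0286). In the 6 libraries the difference was 0.261, where 3 libraries against 3 cannot give an exact p under 0.1. With 1 library left out at a time it ran from -1.47 to 1.91, and lay below 0 without KO 2 (-1.47), KO 3 (-0.0762), WT 2 (-0.836), WT 3 (-0.294) or WT 4 (-0.0557). None of 15 measures, the classes and families among them, had an adjusted p under 1 in the exact permutation tests.

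LTR elements, the remains of retroviruses, gave 0.754, 1.89, 1.57 and 0.996 in KO 1 to 4 and 1.84, 0.814, 1.11 and 1.25 in WT 1 to 4, again per 100 gene reads. LINE elements gave 0.736, 2.19, 1.66 and 1.04 in KO 1 to 4 and 2.16, 0.833, 1.12 and 1.36 in WT 1 to 4. SINE elements, which are short, numerous and often sit in introns and untranslated parts of genes, gave 2.09, 7.62, 4.41 and 2.88 in KO 1 to 4 and 7.76, 2.26, 3.15 and 3.44 in WT 1 to 4. In each of these 3 classes KO 2 and WT 1 were the 2 highest libraries, followed by KO 3. B2 SINEs reached 2.59 in KO 2 and 2.87 in WT 1, against 0.59 to 1.28 in the other 6. IAP, the intracisternal A particles that are among the most active mouse retroviruses and a classic target of DNA methylation, gave 0.0509, 0.1401, 0.1197 and 0.0713 in KO 1 to 4 and 0.0994, 0.0613, 0.0828 and 0.0952 in WT 1 to 4. The counts do not tell TE transcripts of their own from TE sequence inside gene transcripts.

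Subfamily by subfamily, 505 of 905 tested had a positive fold change, with a median of 0.05, and 10 had an unadjusted p under 0.05. In 3 subfamilies (0.331%) every KO library lay above every WT library, and in 4 (0.442%) the reverse held. The first were BGLII_A, MER47A and RLTR31M, and the others BGLII_Mur, ERVB4_1C-LTR_Mm, L1MEi and UCON28a. BGLII_A was at 2.48, 9.32, 6.703 and 3.31 CPM in KO 1 to 4 and 0.211, 0.976, 2.404 and 1.63 CPM in WT 1 to 4, with KO 1 just above WT 3 (log2 fold change 2.05, SE 0.92). The ERVK, ERV1, ERVL and L1 families had medians of 0.05, 0.03, 0.02 and 0.06. All 16 Alu (B1) subfamilies were positive, by a median of 0.08, and these share most of their sequence. IAPEz-int, the internal part of IAP, was at 298, 822, 765 and 404 CPM in KO 1 to 4 and 553, 340.4, 481 and 577 CPM in WT 1 to 4. KO 2 and KO 3 were highest and KO 1 lowest (log2 0.23, SE 0.50). MERVL-int and its promoter MT2_Mm, elements of the early embryo, differed by 0.14 ± 0.48 and 0.02 ± 0.51.

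The young LINE-1 subfamilies that can still move overlapped. L1Md_A was at 112, 246, 199.8 and 162 CPM in KO 1 to 4 and 205, 115, 169 and 225 CPM in WT 1 to 4 (log2 0.01, SE 0.46), and L1Md_T and L1Md_Gf differed by -0.06 and -0.15 (SE 0.49 and 0.53). RLTR4_MM-int, the internal part of a murine leukaemia virus-like element, was at 188, 70.8, 154 and 44.1 CPM in KO 1 to 4 and 35.8, 91.9, 61.6 and 64.6 CPM in WT 1 to 4. KO 1 and KO 3 were high, and KO 4 lay below 3 WT libraries (log2 0.85, SE 0.53). The subfamilies with the lowest p were L1PB4 and RLTR46B on the higher side and Kanga1b and GSAT_MM on the lower, among those with enough reads to be named. L1PB4 was at 0.797, 26.9, 3.42 and 3.55 CPM in KO 1 to 4 and 0, 0.6299, 0.214 and 1.88 CPM in WT 1 to 4, with most of its difference from KO 2 (log2 fold change 3.63, SE 1.204). GSAT_MM, the major satellite beside mouse centromeres, was at 2.92, 39.1, 47.6 and 35.9 CPM in KO 1 to 4 and 39.2, 2.36, 128 and 335 CPM in WT 1 to 4. WT 3 and WT 4 were high, but WT 2 was lowest of all, so the groups overlapped (log2 fold change -2.01, SE 0.92).

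**Figure D5:**
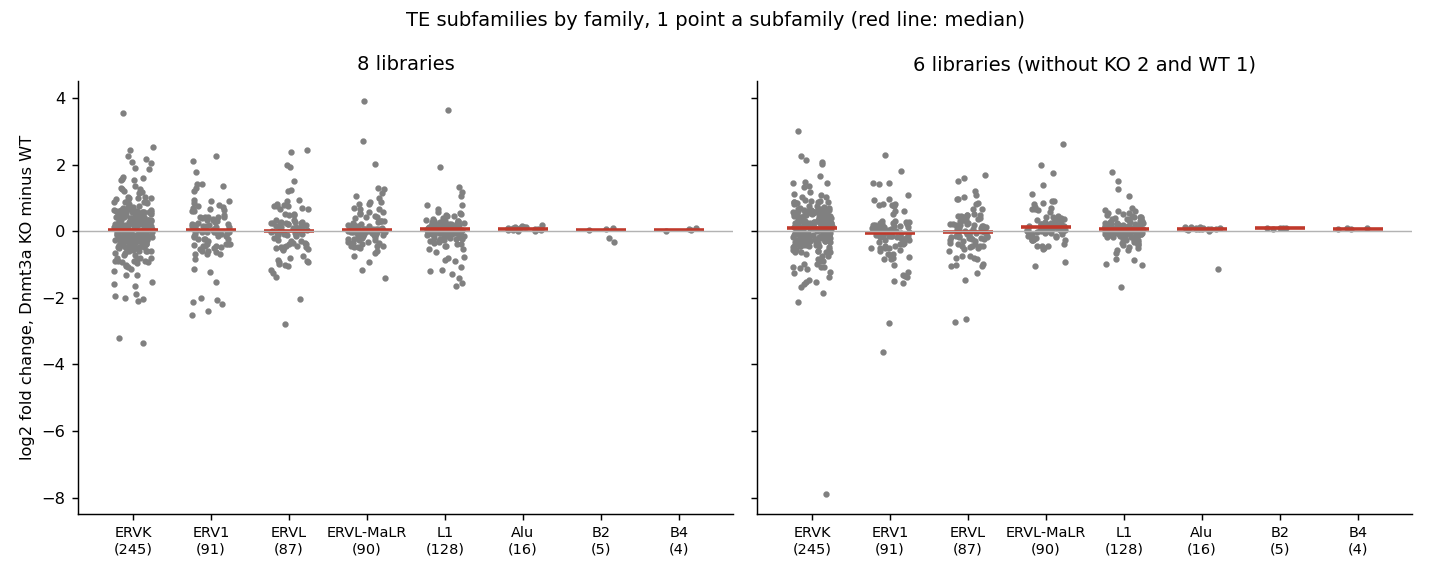
Log2 fold change (KO minus WT) of each TE subfamily tested, by family, with a red line at the family's median, for the 8 libraries and for the 6 without KO 2 and WT 1. Every family is centred close to 0 in both panels, and the number of subfamilies is below each family's name.

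Whether the effect of Dnmt3a loss in LT-HSC differed from that in other populations was tested as an interaction. Against CMP/GMP, the common and granulocyte-macrophage progenitors (4 KO and 4 WT libraries), 0 of 14727 genes (0%) passed, with 846 at an unadjusted p under 0.05 and a lowest adjusted p of 0.401 in edgeR. Against MEP, the megakaryocyte-erythroid progenitors (4 KO and 3 WT), 0 of 14907 (0%) passed, with 1264 and 0.362. For TE subfamilies against short-term stem cells (ST-HSC, 4 and 4), 0 of 1011 (0%) passed, with 46 and a lowest adjusted p of 0.9999. DESeq2 called 380, 377 and 0. Genes of ST-HSC were not analysed here, because the gene table's column names do not assign them. The TE comparison with ST-HSC was therefore scaled by TE reads and not by gene reads. A change shared by all TE cannot be seen in it.

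The genes with the lowest interaction p included some already named. For Satb1 the difference of the effects, LT-HSC minus CMP/GMP, was -4.897 (SE 0.93, edgeR adjusted p = 0.401). Its mean was 29.5 CPM in KO and 32.9 CPM in WT CMP/GMP. For Itgam it was 6.54 (SE 1.62, edgeR adjusted p = 0.623), with 8.48 and 7.89 CPM in KO and WT CMP/GMP, where it was present in both. Against MEP, Pias3 gave 4.98 (SE 0.89, edgeR adjusted p = 0.362). It was at 34.3 CPM in KO and 17.01 CPM in WT LT-HSC on average, and at 1.61 and 25.8 CPM in MEP. Levels in this paragraph were scaled over both populations together, so those of LT-HSC differ from the values given above. Prss50 gave -10.76 (SE 2.09, edgeR adjusted p = 0.462) and averaged 112 CPM in KO and 266 CPM in WT MEP, with 0 reads in KO LT-HSC. None of these genes passed the edgeR test of the difference with all libraries and the filter on low counts. Without that filter Prss50 passed it against MEP, at -10.65 (adjusted p = 0.000178). With the filter but without WT 1 of LT-HSC, Prss50 alone passed it, at -13.73 against CMP/GMP (adjusted p = 0.0234) and -11.20 against MEP (adjusted p = 0.00903). DESeq2 called all 4 in these comparisons.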

How the data were processed

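Transcripts of 8 LT-HSC libraries (4 KO, 4 WT) were measured by SMART-Seq2. The authors deposited read counts per gene and per TE subfamily. Trim Galore 0.6.7, HISAT2, featureCounts 2.0.1, DESeq2 1.34.0 and the mm10 build are named in the submitters' processing notes, with no role given. The gene annotation, the strand setting and the treatment of reads with several matches were not found in the labels or file headers. Groups came from the labels. Of the gene columns, 8 whose names fit no single sample were not used. The members and the gene lists were chosen with earlier results of these data known.

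Counts were tested with edgeR 4.0.16 (R 4.3.3; TMM, quasi-likelihood test, filterByExpr with a minimum count of 10 and total of 15, Benjamini-Hochberg over all features, adjusted p under 0.05), with TE subfamilies scaled by the gene library sizes. The 8 libraries held 16924296 to 45839319 gene reads. DESeq2 1.42.0, limma 3.58.1 (voom), other scalings, filters, covariates, a replicate block and left-out libraries were alternatives. TE totals were compared by exact permutation tests. Differences between populations were interaction terms, and there the TE subfamilies were scaled by the TE library sizes instead. The scripts were tested on simulated data. Of CMP/GMP (WT 2 and WT 4), MEP (KO 3 and KO 4) and ST-HSC (KO 3 and KO 4), 1 pair of libraries each was nearly alike. Log2 counts within these pairs correlated at r = 0.995, 0.993 and 0.995. Each pair differed beyond sampling noise and was kept as 2 libraries, but that difference does not show separate animals. With each pair summed into 1 library, edgeR again called 0 differences between populations.

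Named by rule were, with a mean of at least 5 CPM, the 6 genes of lowest p in each direction and, of each list, up to 6 members of lowest p or the 2 of highest CPM. Outside the rule, and chosen after their values were seen, were Prss50, Tm6sf2, Socs2, Pias3, the MHC class II and Gimap genes and the list members C1qa, C1qb, Car1, Cd3d, Cd3e, Cd3g, Cd79a, Csf1r, Csf2rb2, Csf3r, Ctsg, Ddx4, Elane, Fcnb, Hlf, Ifitm3, Ikzf1, Irf3, Itga2b, Kif20a, Kit, Mb21d1, Mecom, Meis1, Mmp8, Mrc1, Ms4a1, Mycn, Pax5, Pdk1, Rrm2, Slamf1, Slfn5, Tbk1, Tet2, Tmem173 and Vwf. A few members of the rule and lists are not reported here. Gene positions and promoters are from RefSeq tables of GRCm38.p6, which matched 32501 of 35976 genes by symbol and 1005 by an older symbol.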

Additional observations from a re-analysis of the deposited data

Results flagged for a closer look

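In 49 of 346 groups of 4 libraries examined, 1 library stood so far from the other 3 of its genotype that the gap, as a share of the group's range, passed Dixon's 95% critical value. Examined were library measures, list sums, TE measures and the genes and subfamilies named above, but not Nkg7 or Lck. Chance flags about 1 in 20 groups picked without regard to their values. That rate does not hold here, since many of the genes were named after their values were seen and in 9 of the groups that passed the other 3 libraries were at 0. WT 1 was that library in 18 and KO 2 in 13 of the 49 groups. Values below are followed by those of the other 3 libraries of the same genotype.

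WT 1 stood apart with the share of otherwise expressed genes without a read at 4.49% against 1.68 to 2.06%, the summed granulocytic genes at 3895 CPM against 441 to 653 and B2 at 2.87 reads per 100 gene reads against 0.671 to 0.989. WT 1 also had Cd48 at 50.7 CPM against 0.0837 to 6.61, Cd9 at 14.5 CPM against 184 to 190.04 and Bst2 at 157 CPM against 96.1 to 104. WT 1 further had Mpo at 1458 CPM against 0.904 to 3.84, Tfrc at 479 CPM against 37.9 to 90.7 and Pf4 at 2318 CPM against 118 to 149.8. WT 1 was likewise distant with Cd79b at 5.53 CPM against 37.3 to 38.5, Gimap6 at 122 CPM against 378 to 407 and Ctsg at 419.96 CPM against 0.0476 to 0.209. WT 1 had as well Elane at 634 CPM against 0 to 0.4605, Csf1r at 30.9 CPM against 0 and Mrc1 at 0.105 CPM against 0. WT 1 showed ERVB4_1C-LTR_Mm at 4.85 CPM against 0.858 to 1.32, Kanga1b at 59.8 CPM against 10.7 to 14.3 and MT2_Mm at 84.6 CPM against 35.3 to 36.3.

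KO 2 stood apart with the share of ribosomal protein reads at 11.2% against 7.94 to 8.41%, the summed stem cell surface and niche receptors at 3108 CPM against 4539 to 4813 and the summed imprinted genes at 1036 CPM against 664 to 688. KO 2 also had the summed TE silencing genes at 3222 CPM against 1868 to 2091, the summed polycomb genes at 2512 CPM against 1645 to 1790.3 and Scoc at 247 CPM against 96.9 to 102. KO 2 further had Ifit1 at 64.6 CPM against 4.84 to 12.3, Samd9l at 144 CPM against 26.7 to 38.9 and Socs2 at 145 CPM against 17.2 to 36.7. KO 2 was likewise distant with Elane at 50.2 CPM against 1.09 to 3.28, Csf2rb2 at 3.58 CPM against 0 to 0.271 and L1PB4 at 26.9 CPM against 0.797 to 3.55. KO 2 had as well RLTR46B at 30.2 CPM against 0.461 to 3.38.

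KO 3 stood apart with the summed T and NK cell genes at 83.5 CPM against 191 to 204, Ctsg at 6.84 CPM against 0.768 to 1.03 and C1qa at 4.22 CPM against 0 to 0.128. KO 3 also had C1qb at 8.31 CPM against 0 and Mrc1 at 9.25 CPM against 0 to 0.128. KO 4 stood apart with Pf4 at 248 CPM against 85.4 to 100.1, Uhrf1 at 303 CPM against 149 to 175 and Pax5 at 0.0542 CPM against 0. KO 4 also had Ddx4 at 0.163 CPM against 0. WT 3 stood apart with Vwf at 101 CPM against 60.2 to 66.99, C1qa at 0.238 CPM against 0 and Cd3d at 0.762 CPM against 0 to 0.06299. KO 1 stood apart with Cd79a at 0.118 CPM against 0 and Cd3d at 0.118 CPM against 0. WT 2 stood apart with Ifit1 at 10.02 CPM against 0 to 0.1904 and Ifitm1 at 2238 CPM against 733 to 973. WT 4 stood apart with C1qb at 2.68 CPM against 0 and Mecom at 213 CPM against 98.2 to 105.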

How the results depend on the processing

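DESeq2 called 44 genes in the 8 libraries and 94 without KO 2 and WT 1 (added after seeing the data), and 1 TE subfamily, MLT1G3-int, lower in KO (log2 -8.40, adjusted p = 0.0388). Fitting all populations with gene columns together, edgeR called 1 gene, Prss50 (-12.11, adjusted p = 0.0142). The other 17 settings for genes and 13 for TE subfamilies gave 0 calls. For the difference from CMP/GMP and from MEP, DESeq2 called 380 and 377 genes. Without LT-HSC KO 2 and WT 1 together edgeR called 1 in each, Prss50 (-13.79, adjusted p = 0.0443, and -11.25, adjusted p = 0.0197). Leaving out single LT-HSC libraries gave 0 to 1, the 1 being Prss50 without WT 1. With no filter on low counts the MEP comparison gave 5 (Cd74, Mcpt8, Pf4, Prss34 and Prss50, all lower). The cause of these moves was not tested. TE reads per 100 gene reads differed by -1.47 to 1.91 with single libraries left out, and turned lower in KO without KO 2 (-1.47), KO 3 (-0.0762), WT 2 (-0.836), WT 3 (-0.294) or WT 4 (-0.0557). Mpo turned from -2.17 to 4.34 with DESeq2 in the 6 libraries.

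Over all settings, 77 of 144 genes, 8 of 29 list medians and 14 of 34 TE subfamilies kept their direction. Deviations from the genotype's mean correlated at r from -0.20 to 0.12 between same-numbered libraries. The same-numbered WT library had the highest r for KO 3 and KO 4 (0.11 and 0.12), but not for KO 1 and KO 2. KO 2 and WT 1 gave 0.34. Same-numbered libraries also carried the same kind of sex transcripts, so these values cannot settle whether the numbers pair the libraries. A fit with the number as a block called 0 genes (119 at an unadjusted p under 0.05), 0 TE subfamilies and 0 differences between populations, with a TE difference of 0.181. The spread between the 4 libraries of a genotype limits the comparison, and even a large difference can miss the threshold, so a feature that did not pass is not shown to be equal.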
